A study of Mus musculus with 4 samples.

Results

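The genes described here are 10 members of the Notch pathway, namely the receptors Notch1, Notch2 and Notch3, the ligands Jag1, Jag2, Dll1 and Dll3, and the transcriptional effectors Hes1, Hes5 and Hey1. They were chosen by gene symbol, and all 10 were found among the 22096 symbols of the deposited tables, each as 1 RefSeq transcript. Transcript levels were measured by RNA sequencing of whole spinal cord from mice of mixed strain background at postnatal day 8. The cKO group (2 libraries) carried the genotype Chd7f/f; Olig1-cre, and the Ctrl group (2 libraries) carried Chd7f/+; Olig1-cre. Both groups thus carry the Olig1-cre allele, which acts in cells of the oligodendrocyte lineage, and the controls have a floxed Chd7 allele as well. The contrast is therefore of homozygous against heterozygous floxed Chd7, with Cre present in both groups. Chd7 encodes a chromatin remodeler, and the series asks how its loss from this lineage bears on the timing of myelination. The labels do not say whether the libraries of a group came from separate animals. The p-values therefore measure the spread between these libraries only, and that spread is mostly pooled over genes.

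Notch proteins are receptors on the cell surface that are activated by ligands of the Jagged and Delta families on neighbouring cells. Ligand binding leads to cleavage of the receptor, and its intracellular part enters the nucleus, joins the DNA-binding protein RBPJ and switches on genes of the Hes and Hey families, which encode transcriptional repressors. In the developing rodent nervous system this pathway keeps progenitors undifferentiated, and in the oligodendrocyte lineage of rodents Jagged1 acting on Notch1 is known to hold back the maturation of precursors.

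The libraries differed in ways that touch the values below. Depth relative to the shallowest library was 2.22 in cKO 1, 3.19 in cKO 2, 2.07 in Ctrl 1 and 1.0 in Ctrl 2. Chd7 was at 2.52 and 3.38 FPKM (fragments per length of transcript, scaled to library depth) in cKO 1 and cKO 2, against 3.52 and 3.12 FPKM in Ctrl 1 and Ctrl 2, and did not pass the test (limma adjusted p = 0.657). The deleted part of Chd7 is not given in the sources used here, and cells outside the Olig1 lineage keep the gene. The controls carry Olig1-cre and a floxed Chd7 allele too, so this level checks the genotypes little. All 10 markers of myelinating oligodendrocytes fell, beside 6.54% of all genes tested. With no filter on low values none of them fell, and with all rows summed 2 did. The 10 markers summed to 2458 and 4225 FPKM in the cKO libraries against 7673 and 7914 FPKM in the Ctrl libraries. The fitted log2 fold changes of all 10 neuron markers lay above 0, beside 49.5% of all genes, though the groups overlapped in 5. In the other 5 both cKO libraries lay above both controls, beside 24.3% of all genes. Of the 10, 1 rose, beside 4.13% of all genes. The 1 that rose, Slc32a1, was lost without Ctrl 2 or cKO 1, and under median-of-ratios scaling, and 3 rose without cKO 2. No neuron marker rose with no filter on low values, with all rows summed or with the replicate number as a block. The neuron markers summed to 1948 and 1590 FPKM in the cKO libraries against 1368 and 1287 FPKM in the Ctrl libraries. In bulk tissue, fewer cells of a type and less RNA per cell cannot be told apart. Ctrl 1 stood apart in markers of tissue around the cord, and meningeal fibroblast markers, of which 6 of 8 tested fell (2 without Ctrl 1 or under TPM scaling, and 1 under quantile scaling or with robust moderation), summed to 36.6 and 39.4 FPKM in cKO 1 and cKO 2, against 276 and 62.2 FPKM in Ctrl 1 and Ctrl 2. The 6 of 8 meningeal fibroblast markers that fell stand beside 6.54% of all genes. With no filter on low values or with all rows summed, no meningeal fibroblast marker fell. Schwann cell markers summed to 26.5 and 24.9 FPKM in the cKO libraries, against 118 and 31.8 FPKM in the Ctrl libraries. Sex-linked transcripts differed too, with the Y-linked Ddx3y at 11.6 FPKM in cKO 2 and at no more than 0.195 FPKM in the other libraries. The X-linked Xist was at 19.6 and 0.233 FPKM in cKO 1 and cKO 2, against 55.6 and 51.8 FPKM in Ctrl 1 and Ctrl 2. In none of the marker lists of 10 cell types was a gene at 0 in all 4 libraries. The part of these differences in the results below was not tested, except where a value without a library is given.

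None of the 10 members passed the test between cKO and Ctrl cords. The test was a limma fit of log2(FPKM + 1) over all 12913 genes with a mean of at least 1 FPKM, with Benjamini-Hochberg adjustment at 0.05. All 10 members cleared that minimum. In the same fit 10.7% of all genes passed, 4.13% higher and 6.54% lower in cKO cords. At an unadjusted p under 0.05, 3 members passed (Jag1, Notch3 and Jag2), beside 24.2% of all genes. The median log2 fold change was -0.04 over the members and 0.00 over all genes tested, and 4 of the 10 members lay above 0, beside 49.5% of all genes. The groups did not overlap in 4 members, beside 53.5% of all genes. Of these, 2 were higher in cKO cords (Notch3 and Jag2, beside 24.3% of all genes) and 2 were lower (Jag1 and Hes1, beside 29.3%), so these counts are no larger than the background. No member reached a gap of 1.5-fold between all cKO and all Ctrl libraries, which 3.83% of all genes did. Without any 1 of the 4 libraries the number of members that passed was 0 as well.

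**Figure D1:**
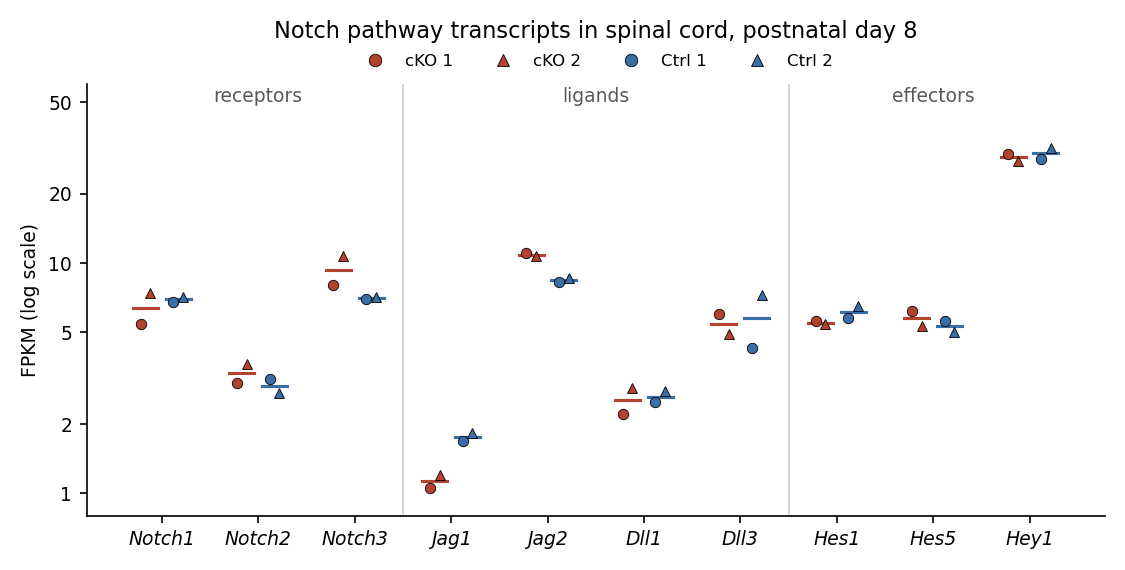
Level of each of the 10 members in FPKM (log axis) in every library, with circles for replicate 1, triangles for replicate 2 and bars for group means. Hey1 is the highest and Jag1 the lowest in every library, and the groups are separate in Notch3, Jag1, Jag2 and Hes1.

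The members spanned a wide range of levels, compared here in FPKM, a unit per length of transcript. Hey1 was highest, at a mean of 29.4 FPKM over the 4 libraries, and its lowest library (27.8 FPKM) lay above the highest library of any other member. Jag2 (9.68 FPKM), Notch3 (8.23 FPKM), Notch1 (6.69 FPKM), Hes1 (5.82 FPKM), Dll3 (5.62 FPKM) and Hes5 (5.54 FPKM) followed. Within this run of 6 genes, each overlapped the next across libraries. Notch2 (3.13 FPKM) lay below Hes5 without overlap, and it overlapped Dll1 (2.58 FPKM). Jag1 was lowest, at 1.44 FPKM, and its highest library (1.83 FPKM) lay below the lowest of Dll1 (2.21 FPKM). These 3 steps without overlap (Hey1 over Jag2, Hes5 over Notch2 and Dll1 over Jag1) held in all 4 libraries. The aligned sequence behind a value (coverage times transcript length) ran between 4.6 kilobases for Hes5 in Ctrl 2 and 195 kilobases for Notch3 in cKO 2. In the deposited tables no other gene's locus overlapped that of a member.

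The 3 receptors showed no change that passed. Their summed level was 16.5 and 21.8 FPKM in the cKO libraries, against 16.9 and 17.0 FPKM in the Ctrl libraries, so the groups overlapped. Notch1 (chromosome 2, 26313422 to 26359342 on mm9, as for all members), the receptor most studied in neural progenitors, was at 5.43 and 7.39 FPKM in cKO 1 and cKO 2, against 6.79 and 7.16 FPKM in Ctrl 1 and Ctrl 2. The cKO libraries lay on either side of both controls. Its log2 fold change was -0.12 ± 0.16 (SE, n = 2 each), with a 95% interval of -0.43 to 0.20 (limma adjusted p = 0.696). Notch2 (chromosome 3, 97817461 to 97954290), a second widely expressed receptor, was at 3.02 and 3.65 FPKM in the cKO libraries, against 3.13 and 2.73 FPKM in the Ctrl libraries. These groups overlapped as well, and the log2 fold change was 0.14 ± 0.15 (interval -0.17 to 0.45, limma adjusted p = 0.639).

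Notch3 (chromosome 17, 32257838 to 32303797), known as the receptor of vascular mural cells, was at 8.01 and 10.8 FPKM in cKO 1 and cKO 2, against 7.02 and 7.15 FPKM in Ctrl 1 and Ctrl 2. Both cKO libraries lay above both controls, and cKO 2 lay far above cKO 1. The means were 9.38 ± 1.94 FPKM in cKO cords and 7.09 ± 0.0886 FPKM in Ctrl cords (SD, n = 2 each). The log2 fold change of 0.35 ± 0.16 (SE, interval 0.03 to 0.66) did not pass (limma adjusted p = 0.153). It was 0.16 without cKO 2 and 0.54 without cKO 1, so its size depended on which cKO library was kept. Of 10 mural cell markers 7 were tested and none passed by limma, with a median log2 fold change of 0.12. At an unadjusted p under 0.05, 3 passed, beside 24.2% of all genes. Their summed level was 43.8 and 52.3 FPKM in the cKO libraries, against 53.1 and 39.8 FPKM in the Ctrl libraries, with the ranges overlapping. The 3 at an unadjusted p under 0.05 differed in direction. The receptor gene Pdgfrb and the potassium channel gene Kcnj8 were higher in both cKO libraries, as Notch3 was, with ratios of 1.34 and 1.49, and Tagln, a smooth muscle gene, was lower (ratio 0.733). The part of mural cell content in the Notch3 values was not tested. The most abundant genes of the mural list were Rgs5, a regulator of G protein signalling, and the proteoglycan gene Cspg4. Rgs5 was at 18.7 and 26.4 FPKM in the cKO libraries against 29.0 and 17.7 FPKM in the Ctrl libraries. Cspg4 was at 6.15 and 7.40 FPKM in the cKO libraries against 4.95 and 6.05 FPKM in the Ctrl libraries. In whole cord these listed genes may be transcribed in other cells too, and their cell of origin was not tested. Endothelial markers did not pass either (0 of 10 by limma, 2 at an unadjusted p under 0.05), with sums of 116 and 86.5 FPKM in the cKO libraries against 108 and 114 FPKM in the Ctrl libraries.

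The 4 ligands did not share a direction, and none passed. Their summed level was 20.3 and 19.7 FPKM in the cKO libraries, against 16.7 and 20.5 FPKM in the Ctrl libraries, with overlap. Jag1 (chromosome 2, 136907187 to 136942256), the Jagged ligand studied as a brake on precursor maturation, was at 1.06 and 1.20 FPKM in cKO 1 and cKO 2, against 1.68 and 1.83 FPKM in Ctrl 1 and Ctrl 2. The means were 1.13 ± 0.0988 FPKM in cKO cords and 1.76 ± 0.102 FPKM in Ctrl cords (SD, n = 2 each), a ratio of 0.642. Both cKO libraries lay below both controls, and the gap between the groups was wider than the gap within either. The log2 fold change of log2(FPKM + 1) was -0.37 ± 0.16 (SE, interval -0.69 to -0.06) and did not pass (limma adjusted p = 0.126). The pseudocount of 1 compresses changes at so low a level, and with a pseudocount of 0.1 the log2 fold change was -0.60 (limma adjusted p = 0.134).

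Jag2 (chromosome 12, 114146801 to 114167706), the other Jagged ligand, was at 11.0 and 10.8 FPKM in cKO 1 and cKO 2, against 8.31 and 8.63 FPKM in Ctrl 1 and Ctrl 2. The means were 10.9 ± 0.194 FPKM in cKO cords and 8.47 ± 0.222 FPKM in Ctrl cords (SD, n = 2 each). Both cKO libraries lay above both controls, and the libraries of each group were close to each other. Its log2 fold change was 0.33 ± 0.15 (SE, interval 0.03 to 0.63), which did not pass (limma adjusted p = 0.163). The spread used in this test is mostly pooled over genes, and for Jag2 it was wider than the spread of its own libraries.

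Dll1 (chromosome 17, 15504318 to 15512787), a Delta ligand that activates receptors on neighbouring cells, was at 2.21 and 2.86 FPKM in cKO 1 and cKO 2, against 2.48 and 2.79 FPKM in Ctrl 1 and Ctrl 2. The Ctrl values lay between the cKO values. The log2 fold change was -0.04 ± 0.16 (SE, interval -0.36 to 0.27, limma adjusted p = 0.898). Dll3 (chromosome 7, 29078574 to 29086804), a Delta family member known to inhibit rather than activate Notch in the mouse, was at 5.996 and 4.93 FPKM in the cKO libraries, against 4.26 and 7.29 FPKM in the Ctrl libraries. Here the Ctrl libraries held both the lowest and the highest value, and the cKO libraries lay between them. The log2 fold change was -0.04 ± 0.17 (SE, interval -0.38 to 0.31, limma adjusted p = 0.925), and it was 0.29 without Ctrl 2, so no direction can be given for Dll3.

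The effectors, whose transcripts are the usual readout of Notch activity, summed to 41.5 and 38.6 FPKM in the cKO libraries, against 39.9 and 43.2 FPKM in the Ctrl libraries, with overlap. None of the 3 passed by limma, and none had an unadjusted p under 0.05. Hes1 (chromosome 16, 30065443 to 30067882), a basic helix-loop-helix repressor of neural progenitors, was at 5.58 and 5.42 FPKM in cKO 1 and cKO 2, against 5.78 and 6.52 FPKM in Ctrl 1 and Ctrl 2. Both cKO libraries lay below both controls, by a narrow margin to Ctrl 1. Its log2 fold change was -0.14 ± 0.15 (SE, interval -0.44 to 0.17, limma adjusted p = 0.635). Hes5 (chromosome 4, 154335032 to 154336480), a related repressor that in mouse restrains myelin gene expression, was at 6.18 and 5.34 FPKM in the cKO libraries, against 5.62 and 5.04 FPKM in the Ctrl libraries. The groups overlapped, with a log2 fold change of 0.09 ± 0.15 (SE, interval -0.21 to 0.40, limma adjusted p = 0.762). Hey1 (chromosome 3, 8663359 to 8667038), a Hes-related repressor, was at 29.8 and 27.8 FPKM in the cKO libraries, against 28.5 and 31.7 FPKM in the Ctrl libraries. These groups overlapped too, at a log2 fold change of -0.06 ± 0.16 (SE, interval -0.38 to 0.26, limma adjusted p = 0.861). On the fold scale of FPKM + 1, the intervals ran from 0.737 to 1.12 for Hes1, from 0.863 to 1.32 for Hes5 and from 0.767 to 1.20 for Hey1. A change of up to these sizes is within what this fit allows, with 2 libraries a group and a spread mostly pooled over genes. The result does not show that the levels were equal.

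Because Hes5 is a classical target of the RBPJ complex, the promoter of Hes5 is shown beside that of Lfng, the pathway gene with the largest rise. The pair was chosen after the values were seen. Both windows run from 250 bases before to 50 bases after the transcript start, are given 5′ to 3′ on the plus strand of GRCm38.p6 as RefSeq annotates them, and lie at chr4:154960673-154960972 for Hes5 and chr5:140607091-140607390 for Lfng. Capitals mark matches to TGGGAA, the core of the RBPJ motif, or to its reverse complement TTCCCA.
Hes5: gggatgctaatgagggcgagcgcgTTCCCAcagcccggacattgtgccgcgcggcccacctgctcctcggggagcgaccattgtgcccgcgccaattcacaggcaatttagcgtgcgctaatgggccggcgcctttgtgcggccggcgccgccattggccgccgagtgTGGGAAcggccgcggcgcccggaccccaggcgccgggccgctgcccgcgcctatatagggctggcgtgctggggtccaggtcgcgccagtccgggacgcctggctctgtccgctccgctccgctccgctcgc
Lfng: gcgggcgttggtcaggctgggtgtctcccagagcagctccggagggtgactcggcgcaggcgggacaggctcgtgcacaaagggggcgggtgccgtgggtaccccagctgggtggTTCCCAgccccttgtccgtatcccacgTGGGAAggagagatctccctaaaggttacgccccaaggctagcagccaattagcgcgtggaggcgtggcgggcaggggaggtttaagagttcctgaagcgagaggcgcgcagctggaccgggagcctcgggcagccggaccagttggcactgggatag
Each window held 1 match on each strand. In Hes5 the matches began 226 and 82 bases before the start, and in Lfng 135 and 108 bases before it. Of 32851 promoter windows of the same length, 25.6% held TGGGAA on either strand and 1.81% held it on both. The longer form GTGGGAA, which overlaps the core motif, was on both strands in Hes5 and on 1 strand in Lfng, and 6.38% of all windows had it on either strand and 0.1% on both. Of the members, 8 had an entry in the promoter table, with 9 windows between them, and the Hes5 window was the 1 with the core motif. The other effectors, Hes1 and Hey1, had no entry, so Hes5 was set beside receptors and ligands only. The windows of Hes6, Dtx1, Numbl and Kat2b, which passed the test, held neither motif. Itch, which also passed, had no window. These matches describe letters in a window and not binding.

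**Figure D2:**
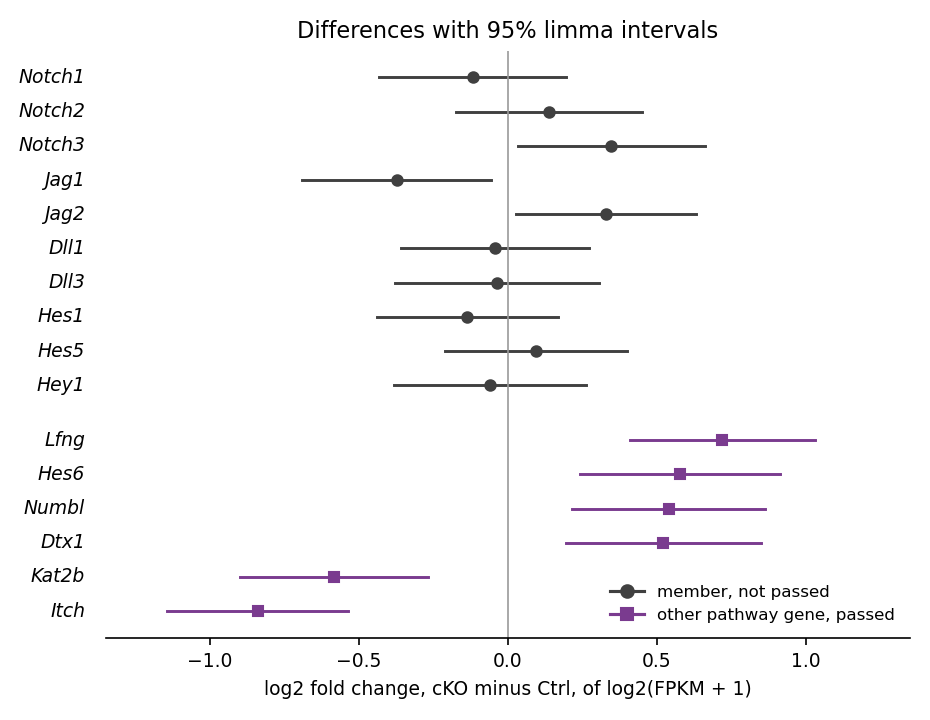
Log2 fold change (cKO minus Ctrl, on log2(FPKM + 1)) with 95% limma intervals for the 10 members (circles) and the 6 other pathway genes that passed (squares). The intervals of Notch3, Jag1 and Jag2 leave out 0 before adjustment, and those of the other 7 members include it.

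Other genes of the pathway passed in numbers close to the background. Of 55 genes in 5 lists (other receptors, ligands, Hes and Hey genes, fringe and O-glycosylation enzymes, ligand endocytosis and receptor traffic, proteases, and the nuclear complex), 52 had enough signal to be tested. Among them 4 rose (Lfng, Hes6, Numbl and Dtx1) and 2 fell (Itch and Kat2b), which is 11.5% beside 10.7% of all genes. Estimates of both signs were as frequent, with 26 of the 52 above 0 and 26 below and a median log2 fold change of 0.00. The calls that rose make up 4 of 52, beside 4.13% of all genes, and those that fell make up 2 of 52, beside 6.54%. None of these 6 calls held with no filter on low values or with all rows summed, settings in which far fewer of all genes passed. Without Ctrl 1 or without cKO 1, Hes6, Numbl, Dtx1 and Kat2b did not pass, and Lfng and Itch did.

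Lfng encodes lunatic fringe, a sugar transferase that modifies Notch receptors and tunes which ligands they answer to. It was at 13.1 and 16.0 FPKM in cKO 1 and cKO 2, against 8.00 and 8.77 FPKM in Ctrl 1 and Ctrl 2. Both cKO libraries lay well above both controls, with a log2 fold change of 0.72 ± 0.15 (SE, n = 2 each, limma adjusted p = 0.00121). The call held without any 1 of the 4 libraries (adjusted p between 0.000876 and 0.0439) and under 3 other scalings. The other fringe genes and the glycosylation enzymes did not pass. Of these, Rfng was at 33.1 and 25.9 FPKM in the cKO libraries, against 21.4 and 26.7 FPKM in the Ctrl libraries, with overlap. Poglut1 and Pofut1, which add the glucose and fucose that fringe and the receptor need, had log2 fold changes of -0.16 and -0.13.

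Genes that move ligands and receptors within the cell included calls in both directions. Of 12 genes 2 rose, beside 4.13% of all genes, and 1 fell, beside 6.54%. Itch, a ubiquitin ligase that binds Notch, was at 5.44 and 5.87 FPKM in cKO 1 and cKO 2, against 11.7 and 10.1 FPKM in Ctrl 1 and Ctrl 2. It was thus near 0.517 of the Ctrl level, with a log2 fold change of -0.84 ± 0.15 (SE, limma adjusted p = 0.000142), and the call held without any 1 library (adjusted p between 1.23e-05 and 0.00667). Numbl, a relative of the Notch antagonist Numb, was at 32.5 and 26.9 FPKM in the cKO libraries, against 18.9 and 21.2 FPKM in the Ctrl libraries (log2 fold change 0.54 ± 0.16, limma adjusted p = 0.0221). Dtx1, a Deltex ubiquitin ligase that binds the receptor, was at 37.8 and 32.7 FPKM in the cKO libraries, against 22.2 and 26.3 FPKM in the Ctrl libraries (log2 fold change 0.52 ± 0.16, limma adjusted p = 0.0300). Neither Numbl nor Dtx1 overlapped between groups, but both calls rested on particular libraries. For Numbl the adjusted p was 0.165 without Ctrl 1 and 0.439 without cKO 1, and for Dtx1 it was 0.268 and 0.414. Quantile scaling ended both calls (adjusted p = 0.0573 for Numbl and 0.0692 for Dtx1), and TPM scaling ended that of Dtx1 (adjusted p = 0.0553). Numb itself was at 3.61 and 3.92 FPKM in the cKO libraries, against 5.17 and 5.51 FPKM in the Ctrl libraries, without overlap, and its log2 fold change of -0.41 missed the threshold (limma adjusted p = 0.0717). Numb and Numbl thus had estimates of opposite sign. The Neuralized genes, whose products promote uptake of ligands, had log2 fold changes of 0.41 (Neurl1a, limma adjusted p = 0.0858) and 0.36 (Neurl1b, limma adjusted p = 0.142), short of the threshold.

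Among the other receptors, ligands and Hes and Hey genes, 1 of the 10 tested rose and none fell, beside 4.13% and 6.54% of all genes. Hes6, which in mouse opposes Hes1 and favours neuronal differentiation, was at 23.1 and 17.0 FPKM in cKO 1 and cKO 2, against 11.2 and 15.0 FPKM in Ctrl 1 and Ctrl 2. The groups did not overlap, and the log2 fold change was 0.58 ± 0.17 (SE, limma adjusted p = 0.0175). This call was lost without Ctrl 1 (adjusted p = 0.243) and without cKO 1 (adjusted p = 0.540), and under other scalings (median-of-ratios 0.0527, TPM 0.0706 and quantile 0.0835). Nrarp, a feedback inhibitor of Notch, was at 22.8 and 22.2 FPKM in the cKO libraries, against 15.8 and 18.5 FPKM in the Ctrl libraries, without overlap (log2 fold change 0.38 ± 0.16, limma adjusted p = 0.118). Dner, a neuronal protein with epidermal growth factor repeats, was at 87.2 and 85.6 FPKM in the cKO libraries, against 69.4 and 63.0 FPKM in the Ctrl libraries, and did not pass (limma adjusted p = 0.175). Dlk1, an atypical Delta-like ligand, overlapped between groups at a log2 fold change of -0.12. Hes2 was listed at 0 in all 4 libraries, and Hes3 and Hes7 were below the minimum.

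No protease of the pathway passed (0 of 9 by limma, beside 10.7% of all genes). At an unadjusted p under 0.05, 2 passed, beside 24.2% of all genes. Adam17 and Adam10, which make the outer cut in the activated receptor, had log2 fold changes of -0.37 (limma adjusted p = 0.117) and -0.33 (limma adjusted p = 0.176). In each, both cKO libraries lay below both controls, with Adam10 at 13.0 and 14.3 FPKM in the cKO libraries against 19.0 and 15.9 FPKM in the Ctrl libraries. Without Ctrl 2, Adam17 passed (limma adjusted p = 0.0434). Aph1b, a subunit of the gamma-secretase that makes the inner cut, overlapped between groups at a log2 fold change of 0.16.

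In the nuclear complex Kat2b was the 1 of 16 genes that passed, beside 10.7% of all genes. Of the 16 estimates 4 lay above 0, beside 49.5% of all genes (median log2 fold change -0.10). Kat2b, an acetyltransferase that acts as a coactivator, was at 4.21 and 5.59 FPKM in cKO 1 and cKO 2, against 8.50 and 7.12 FPKM in Ctrl 1 and Ctrl 2 (log2 fold change -0.58 ± 0.16, SE, limma adjusted p = 0.0106). The groups did not overlap, and the call was lost without Ctrl 1 (adjusted p = 0.0700), without cKO 1 (adjusted p = 0.414) and under TPM and quantile scaling (adjusted p = 0.0815 and 0.0722). Rbpj itself was at 7.24 and 9.39 FPKM in the cKO libraries, against 11.1 and 8.90 FPKM in the Ctrl libraries, with overlap and a log2 fold change of -0.24 ± 0.16 (SE, limma adjusted p = 0.360). The Mastermind coactivators Maml1 and Maml3 were at -0.31 and 0.24 on the log2 fold scale, neither of them past the threshold.

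**Figure D3:**
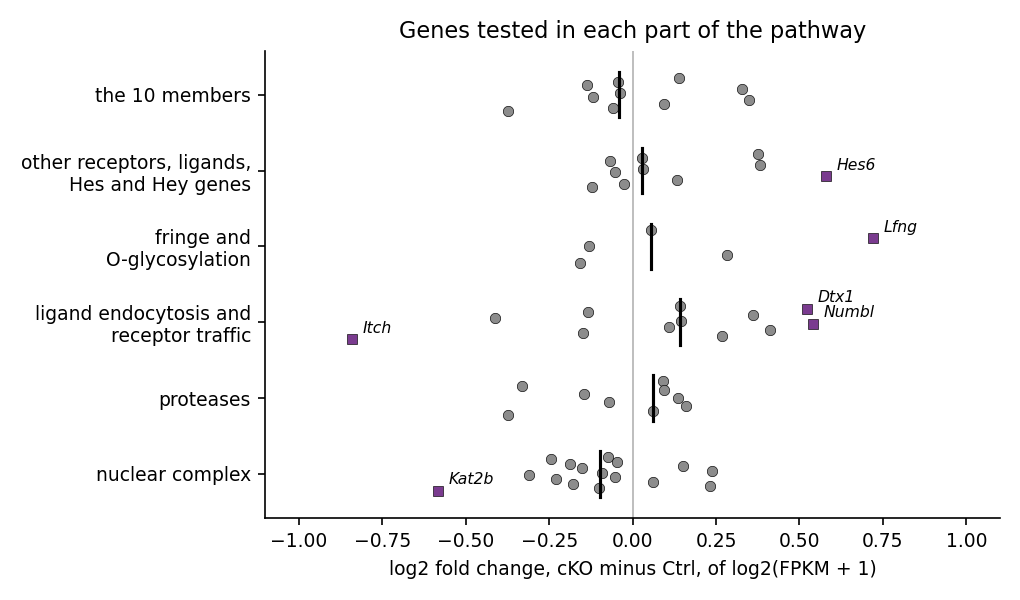
Log2 fold change (cKO minus Ctrl, on log2(FPKM + 1)) of every tested gene, 1 row for the members and 1 for each of the 5 lists, spread vertically only to keep points apart. Squares with names passed the limma test, circles did not, and black bars mark medians, which lie between -0.10 and 0.14.

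Ratios between members within a library do not change when a library is scaled by a single factor, though quantile scaling, which moves genes by different amounts, can change them. Of the 45 pairs of members, 3 had ratios of FPKM at least 1.5-fold apart between all cKO and all Ctrl libraries, and all 3 involve Jag1. The ratio of Jag2 to Jag1 was 10.4 and 8.98 in cKO 1 and cKO 2, against 4.94 and 4.72 in Ctrl 1 and Ctrl 2. That of Notch3 to Jag1 was 7.57 and 8.98 in the cKO libraries, against 4.17 and 3.91 in the Ctrl libraries. For both ratios the cKO values were far from the Ctrl values, and the libraries of a group were close together. The ratio of Notch2 to Jag1 was 2.85 and 3.05 in the cKO libraries, against 1.86 and 1.495 in the Ctrl libraries. Within the receptors, Notch3 to Notch1 was 1.48 and 1.46 in the cKO libraries, against 1.03 and 0.999 in the Ctrl libraries, a gap under 1.5-fold. Jag1 was lower, and Jag2 and Notch3 were higher, in both cKO libraries, which by itself widens the ratios between them. The share of such ratios among pairs of all genes was not computed, so the 3 of 45 has no background beside it. These pairs were picked after their values were seen and were not tested.

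**Figure D4:**
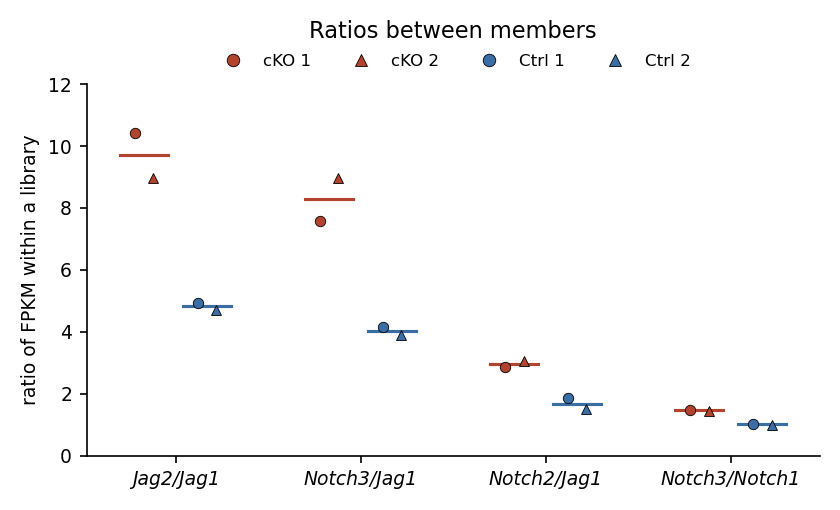
Ratio of FPKM between 2 members within each library for the 3 pairs past 1.5-fold and for Notch3 over Notch1, with circles for replicate 1, triangles for replicate 2 and bars for group means. The cKO ratios of Jag2 to Jag1 (10.4 and 8.98) lie above the Ctrl ratios (4.94 and 4.72).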

How the data were processed

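RNA-seq of 4 spinal cord libraries (2 cKO, 2 Ctrl) was used, grouped by sample title. Per the labels' protocols, Trizol was used for total RNA and a TruSeq kit for the libraries. The authors deposited FPKM per RefSeq transcript in the Cufflinks layout, per the file headers, and coverage, a signal of mean read depth per base. The submitters' processing notes name CASAVA, TopHat, Cufflinks, Cuffdiff and mm9. The sources used here do not state read counts, so no counting interval is given, and depth was taken as coverage divided by FPKM.

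Rows with a status other than OK (315) were dropped, and FPKM was summed per symbol over rows of at least 300 bases. Genes with a mean of at least 1 FPKM were fitted with limma 3.58.1 (R 4.3.3) on log2(FPKM + 1), with genotype as the term and a mean-variance trend. This spread has 36.3 prior and 2 residual degrees of freedom. The script was tested on simulated data. Locus starts were raised by 1 to count from 1. The members and lists were chosen with earlier results of these data known. The text names all members, pathway genes that passed with up to 3 more per list by smallest p, and the most abundant markers where a list touches a result. Genes most like a member that passed were to be named, but no member passed. Alternatives covered pseudocount, filters, scaling, moderation, rows summed, pairing and each library left out. A gene of the proneural list is not reported here.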

Additional observations from a re-analysis of the deposited data

How the results depend on the processing

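No member passed under any of the 15 alternatives, 1 of them (the crossed pairing) chosen after the data were seen, though Notch2, Jag1 and Dll1 have too low a mean for the filter at 5 FPKM. Jag1 stayed lower, and Notch3 and Jag2 higher, in cKO cords under every alternative in which they were tested, with adjusted p ranges, in the order named, of 0.0872 to 0.679, 0.0745 to 0.70 and 0.0681 to 0.655. Estimates near 0 changed sign in some: with a library left out, Notch1 ran between -0.310 and 0.073 (highest without cKO 1), Dll1 between -0.176 and 0.087 (above 0 without cKO 1 or Ctrl 2), Dll3 between -0.364 and 0.291 (above 0 without Ctrl 2 or cKO 2), Hey1 between -0.134 and 0.014, Dlk1 between -0.255 and 0.014, and Aph1b between -0.123 and 0.442, the last 3 turning sign without Ctrl 2. Under quantile scaling Dll1 was at 0.035 and Dll3 at 0.034. Pathway genes that fell and rose numbered 0 and 0 with no filter or with all rows summed, 1 and 2 under TPM scaling, 1 and 1 under quantile scaling, and 1 to 3 and 1 to 4 with a library left out. Of all genes, 0 fell and 1 rose with no filter, 30 and 23 with all rows summed, 460 and 204 under TPM scaling, 426 and 310 under quantile scaling, and 277 to 900 and 107 to 555 with a library left out, lowest without cKO 1. The gap of 1.5-fold was met by 668 to 1371 genes with a library left out, and by 0 to 1 members (Jag1 without Ctrl 1 or cKO 2, Notch3 without cKO 1), beside 495 genes and no member with all libraries; this rule was rerun without each library only after the data were seen. The cause of these shifts was not tested.

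Libraries share only a replicate number, and deviations of same-numbered libraries correlated at -0.241 across genes. With the replicate number as a block, 645 genes fell and 351 rose, and of the pathway genes 2 fell and 2 rose, Numbl and Dtx1 being lost (adjusted p = 0.0546 and 0.0745). With the crossed pairing, added after the data were seen, 1235 genes fell and 943 rose, and of the pathway genes 4 fell and 6 rose, Numb, Adam17, Neurl1a and Nrarp now among them.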

Other observations

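Proneural genes, which encode basic helix-loop-helix activators that Hes proteins repress in neural progenitors, were mostly too low to test. Of 9 listed, 5 had a mean under 1 FPKM. Of the 4 tested 2 rose (beside 4.13% of all genes) and none fell (beside 6.54%), and 4 genes are too few to compare with these shares. Neurod2 was at 3.47 and 3.54 FPKM in cKO 1 and cKO 2, against 1.90 and 2.20 FPKM in Ctrl 1 and Ctrl 2 (log2 fold change 0.56 ± 0.15, SE, limma adjusted p = 0.0120). Neurod6 was at 5.72 and 4.70 FPKM in the cKO libraries, against 3.64 and 2.74 FPKM in the Ctrl libraries (log2 fold change 0.57 ± 0.16, SE, limma adjusted p = 0.0129). Both are known from neurons, the groups overlapped in neither, and the summed neuron markers were also higher in the cKO libraries; the part of neuron content in these values was not tested. The call for Neurod2 was lost without Ctrl 1, cKO 1 or cKO 2 (adjusted p = 0.0514, 0.147 and 0.0785), and that for Neurod6 without Ctrl 2 or cKO 1 (adjusted p = 0.115 and 0.343), and TPM scaling ended both (adjusted p = 0.0697 and 0.0914), as did no filter on low values (adjusted p = 0.268 and 0.348) and summing all rows (adjusted p = 0.122 and 0.162). Neurod1 had a log2 fold change of 0.39 (limma adjusted p = 0.107) and did not pass, except without Ctrl 1 (adjusted p = 0.0419).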
